A study of Drosophila melanogaster with 6 samples.

Results

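Early chorion and vitelline membrane genes were described here: the chorion genes Cp36, Cp38, Cp7Fa, Cp7Fb and Cp7Fc, and the vitelline membrane genes Vm26Aa, Vm26Ab, Vm32E, Vm34Ca and psd. These 10 genes were taken by symbol from the annotation of the array platform, with the brightest probe set used for each gene. The annotation gave 7 of them a probe set of their own, 1 each, among 11982 genes measured in all. The measured genes were the chorion genes Cp36, Cp38 and Cp7Fc and the vitelline membrane genes Vm26Aa, Vm32E, Vm34Ca and psd. Cp7Fa, Cp7Fb and Vm26Ab were not analysed here, because no probe set was assigned to them alone.

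RNA came from whole adult Drosophila melanogaster taken 12 hours after an injection and was hybridised to single-colour Affymetrix arrays. The injected agent was Staphylococcus saprophyticus, a Gram-positive bacterium (called bacteria below), or phosphate-buffered saline (PBS). The genotypes were gyc76c[KG03723], with a mutated Gyc76C (which encodes a receptor-type guanylate cyclase), spz[rm7], with a mutated spz (which encodes Spätzle, the ligand of Toll), and gyc76c[revert], the control. They are called KG03723, rm7 and revert here, and each of the 6 combinations of genotype and injection had 1 array. All flies were reared on cornmeal medium at 25C. The labels call them adult and give neither the number nor the sex of the flies behind an array, nor the genetic background, so an allele and the rest of its background cannot be told apart.

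The eggshell of the fly is secreted by the somatic follicle cells that surround each developing egg in the ovary. The vitelline membrane, its innermost protein layer, is laid down first, in mid-oogenesis, and the chorion is built outside it afterwards. Early chorion genes are switched on before the late ones, and the chorion gene clusters are amplified in follicle cells before they are transcribed at high rates. In the gene order of the RefSeq table (assembly Release 6), Cp7Fa, Cp7Fb, Cp7Fc, Cp36 and Cp38 lie side by side on chromosome X. Vm26Ab, Vm26Aa and psd are neighbours on chromosome arm 2L, with the related gene Vm26Ac between the first pair, and Vm32E and Vm34Ca lie elsewhere on 2L.

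Values are MAS5 signals, linear intensities per probe set that the authors scaled to a 2% trimmed mean of 500 on each array. A floor was set at the 40th percentile of all values, 42.7, and the lowest signal of a measured eggshell gene was 613, so the floor touched none of them. A ratio of 1 array to another has no error, and none was tested. Differences between genotypes and between injections were tested with limma in an additive fit over the 6 arrays, with p-values adjusted by Benjamini-Hochberg over 9540 genes (those over the floor on 3 arrays or more) and a threshold of 0.05. The error of that fit has 2 residual degrees of freedom and measures how far the arrays depart from additivity, which includes any genotype-specific response to the injection. Precision is limited by the 6 arrays, and since nothing in the labels describes separate cultures, p-values measure only the spread between these arrays.

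Facts on the arrays as a whole were these. The brightest of the probe sets annotated with Gyc76C, all shared with CG42637, read 1234 and 1085 in KG03723 after bacteria and PBS, against 2004 and 2092 in revert. The spz signal read 813 and 951 in rm7, against 1122 and 1059 in revert, and the labels do not say that the rm7 lesion lowers the transcript. The share of probe sets over the floor ran from 59.1% to 61.2%. As a sign of RNA quality, the 3' over 5' ratio was highest on the rm7 bacteria array and lowest on the revert bacteria array for each of 3 controls: 2.81 and 2.29 for actin, 2.68 and 1.99 for GAPDH, and 6.61 and 5.66 for eIF-4a. Yolk protein and female fat body genes (5 of 5 measured) summed to signals of 93853 to 117330 per array, and ovary germline genes (22 of 24 measured) to 39841 to 48237. Testis genes (21 of 23 measured, 19 of them above the floor on at least 1 array) summed to 14226 to 26100, and genes of the male accessory gland and ejaculatory bulb (16 of 20 measured) to 49246 to 91357, so genes of both sexes gave signal on every array.

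In rm7 flies the chorion genes Cp36 and Cp38 were lower than in revert, while the vitelline membrane genes Vm32E, psd and Vm26Aa were higher. In KG03723 flies Cp7Fc and Vm32E were higher than in revert, and none of the 7 was called lower. Against each other, KG03723 flies had more Cp36, Cp38 and Cp7Fc signal than rm7 flies and less psd. In these whole-fly samples, fewer follicle cells at a given stage and less RNA per cell cannot be told apart.

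Chorion genes are described first. Cp36 encodes a major structural protein of the early chorion. It read 15252 and 21657 in KG03723 after bacteria and PBS, 4474 and 6300 in rm7, and 11904 and 13252 in revert. The 3 genotypes did not overlap, with KG03723 highest and rm7 lowest. Cp38, the second major early chorion protein gene, read 11279 and 17320 in KG03723, 2723 and 4895 in rm7, and 9197 and 9928 in revert. Its order was that of Cp36. Cp7Fc, a further chorion gene of the same cluster, read 2464 and 3415 in KG03723, 980 and 660 in rm7, and 950 and 1158 in revert. Both KG03723 arrays were the highest for Cp7Fc, and the rm7 arrays overlapped the revert arrays, with the rm7 bacteria array above the revert bacteria array and the rm7 PBS array below the revert PBS array.

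Vitelline membrane genes varied less. Vm26Aa encodes a structural protein of the membrane. It read 18745 and 18394 in KG03723 after bacteria and PBS, 23963 and 21688 in rm7, and 15188 and 15230 in revert. Here rm7 was highest and revert lowest, with no overlap. Vm32E, whose protein is found in the vitelline membrane and later also in the chorion, read 5298 and 6612 in KG03723, 6517 and 7303 in rm7, and 3428 and 3357 in revert. Both mutants were above revert on each array, and they overlapped each other. Vm34Ca, a further structural gene of the membrane, read 37661 and 36364 in KG03723, 41453 and 33939 in rm7, and 33341 and 27588 in revert. The mutants overlapped each other and lay above both revert arrays. Its probe set had the highest signal of all genes named on the KG03723 PBS array and on both rm7 arrays. Compression of such high signals was not tested. The gene psd (palisade) is needed for the vitelline membrane to assemble. It read 665 and 749 in KG03723, 1015 and 1277 in rm7, and 640 and 613 in revert. The rm7 arrays were the highest for psd, and KG03723 lay just above revert.

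**Figure D1:**
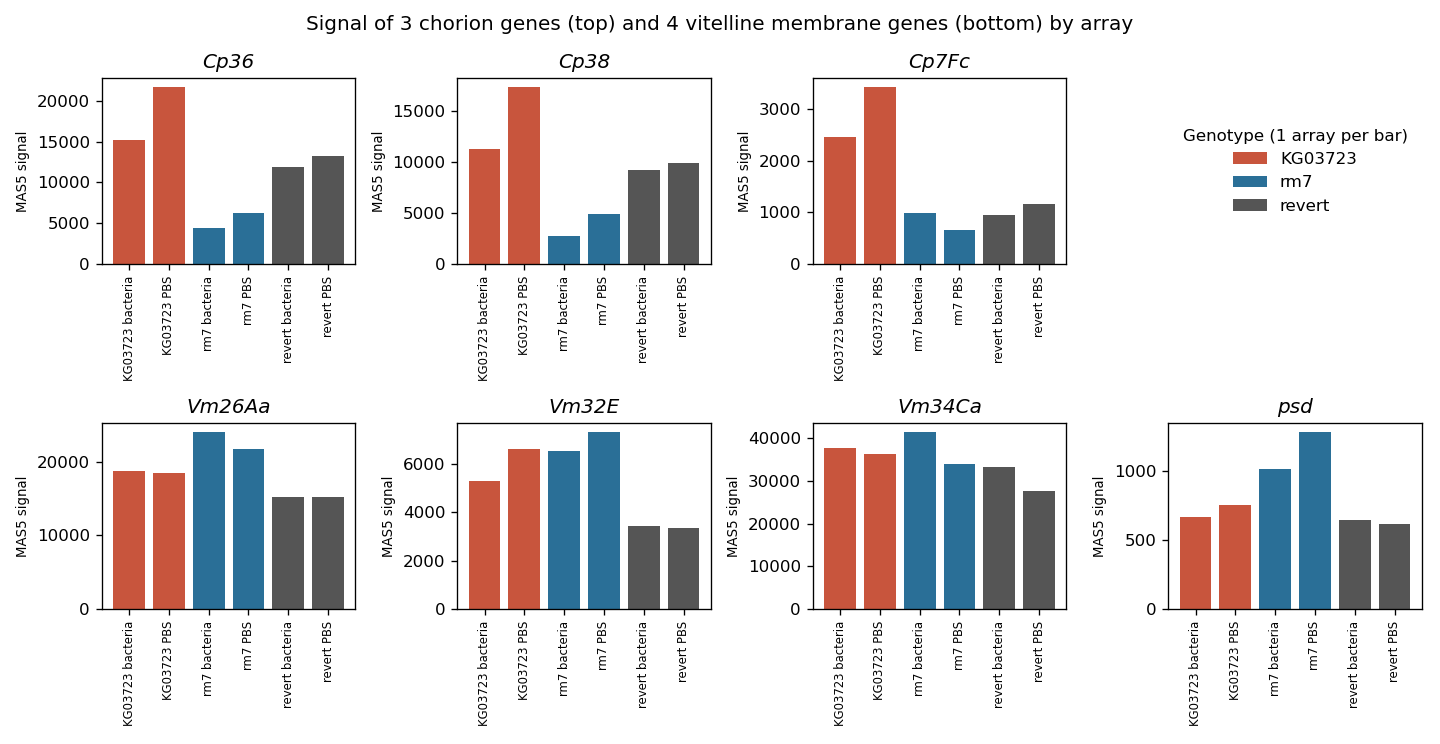
MAS5 signal on each of the 6 arrays for the 3 measured chorion genes (top row) and the 4 measured vitelline membrane genes (bottom row), with 1 bar per array coloured by genotype. The rm7 bars are the lowest for Cp36 and Cp38, at 2723 to 6300, and the highest for psd and Vm26Aa.

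Over the 6 arrays the chorion genes spanned a wider range than the vitelline membrane genes. The highest signal of a gene was 6.36 times its lowest for Cp38, 5.17 times for Cp7Fc and 4.84 times for Cp36. For the vitelline membrane genes it was 2.18 times (Vm32E), 2.08 times (psd), 1.58 times (Vm26Aa) and 1.503 times (Vm34Ca). Among genes above the floor on every array, 98.2% to 99.0% had a smaller range than each chorion gene, against 53.5% to 86.1% for the vitelline membrane genes. The KG03723 PBS array was the highest for all 3 chorion genes and for none of the 4 vitelline membrane genes.

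The comparison of rm7 with revert asked how flies mutant for the Toll ligand differed from the control. In the limma fit 2 of the 7 measured genes were lower in rm7 and 3 were higher, where 3% of all 9540 genes were called lower and 2.61% higher. Cp38 was lower by log2 -1.39 ± 0.17 (SE, limma adjusted p = 0.00636, 2 arrays against 2). Cp36 was lower by log2 -1.24 ± 0.12 (SE, limma adjusted p = 0.00262). These differences run against those of the vitelline membrane genes on the same arrays. Vm32E was higher by log2 1.02 ± 0.12 (limma adjusted p = 0.00442), psd by 0.86 ± 0.15 (limma adjusted p = 0.0236) and Vm26Aa by 0.58 ± 0.10 (limma adjusted p = 0.0240). Vm34Ca stood at 0.31 ± 0.12 (limma adjusted p = 0.239) and Cp7Fc at -0.38 ± 0.24 (limma adjusted p = 0.517). The median of the 7 genes was 0.31, against 0.03 for all genes tested, with members of opposite sign on either side of it. For 6 of the 7 genes, all but Cp7Fc, the rm7 and revert arrays did not overlap, as was the case for 46.6% of all genes tested.

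The calls in rm7 rest on few arrays. Without the rm7 bacteria array, where the 3'/5' control ratios were highest, 0 of the 7 genes were called higher (Vm32E had a limma adjusted p of 0.0513) and Cp38 lost its call (log2 -1.15, limma adjusted p = 0.0695), while Cp36 stayed called and Cp7Fc gained a call as lower (-0.86, limma adjusted p = 0.0485). Cp7Fc stood at log2 0.09 without the rm7 PBS array, the opposite sign, with no call. Without the rm7 PBS array 1 gene, Vm32E, was called higher, because Vm26Aa (limma adjusted p = 0.0757) and psd (limma adjusted p = 0.0987) were not. Vm26Aa lost its call without the revert bacteria array (limma adjusted p = 0.158) or without the injection term in the fit (limma adjusted p = 0.0547), and psd without the revert PBS array (limma adjusted p = 0.167).

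Single arrays were also compared within each injection. After bacteria, Cp38 was 3.38-fold and Cp36 2.66-fold lower in rm7 than in revert, 2 of 7 genes, where 2.87% of all 10105 genes above the floor on at least 1 array were at least 2-fold lower. None of the 7 was at least 2-fold higher then, against 5.42% of all genes, and the vitelline membrane genes had a median log2 ratio of 0.66. After PBS, Cp36 was 2.10-fold and Cp38 2.03-fold lower (4.16% of all genes), and Vm32E was 2.18-fold and psd 2.08-fold higher (2.51% of all genes). Cp7Fc had a log2 ratio of 0.04 after bacteria and -0.81 after PBS. Medians by layer were -1.41 for the chorion and 0.66 for the vitelline membrane after bacteria, and -1.02 and 0.78 after PBS, while the median of all genes was 0.03 and 0.02.

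KG03723 was set against revert to show how flies with a mutated Gyc76C differed from the control, with the same revert arrays as for rm7. All 7 measured genes had higher signals in KG03723 after both injections, and 2 of them were called higher in the limma fit, where 0.681% of all genes were. These were Cp7Fc, at log2 1.47 ± 0.24 (SE, limma adjusted p = 0.0422, 2 arrays against 2), and Vm32E, at 0.80 ± 0.12 (limma adjusted p = 0.0286). Among the rest, Cp38 stood at 0.55 ± 0.17 (limma adjusted p = 0.327) and Cp36 at 0.53 ± 0.12 (limma adjusted p = 0.136). Vm26Aa and Vm34Ca were both at 0.29, with limma adjusted p of 0.465 and 0.564, and psd was at 0.17 ± 0.15 (limma adjusted p = 0.937). None was called lower, against 0.692% of all genes. The median of the 7 was 0.53 and that of all genes tested -0.0049, and the KG03723 and revert arrays did not overlap for any of the 7, as for 37.8% of all genes tested.

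These KG03723 calls were lost under several settings. Without the KG03723 PBS array Cp7Fc stood at log2 1.16 (limma adjusted p = 0.251) and Vm32E at 0.68 (limma adjusted p = 0.190), so 0 of the 7 were called. Leaving out the rm7 bacteria, the rm7 PBS or the revert PBS array also ended the call of Vm32E, with limma adjusted p of 0.0677, 0.0733 and 0.0660. Without the revert bacteria array Cp36 (limma adjusted p = 0.0482) and Cp38 (limma adjusted p = 0.00575) were called as well, making 4. On single arrays, Cp7Fc was the 1 gene at least 2-fold higher, 2.59-fold after bacteria (2.17% of all genes) and 2.95-fold after PBS (1.72% of all genes), and 0 were at least 2-fold lower (1.24% and 1.33% of all genes). Vm32E was 1.55-fold higher after bacteria and 1.97-fold higher after PBS.

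Setting the mutants against each other used no revert array for the difference itself, though the fit takes its error from all 6. The chorion genes parted the mutants most. In KG03723, Cp38 was higher than in rm7 by log2 1.94 ± 0.17 (SE, limma adjusted p = 0.00137), Cp7Fc by 1.85 ± 0.24 (limma adjusted p = 0.00706) and Cp36 by 1.78 ± 0.12 (limma adjusted p = 0.000599). All 3 chorion genes were thus called, where 3.43% of all genes were called higher, and all 3 stayed called without any 1 of the 6 arrays. Of the vitelline membrane genes psd was called lower, at -0.69 ± 0.15 (limma adjusted p = 0.0495), where 2.68% of all genes were, and it lost that call without any 1 of the 4 mutant arrays (limma adjusted p of 0.0773 to 0.300). Vm26Aa stood at -0.30 ± 0.10 (limma adjusted p = 0.190), Vm32E at -0.22 ± 0.12 (limma adjusted p = 0.403) and Vm34Ca at -0.02 ± 0.12 (limma adjusted p = 0.959). The arrays of the mutants did not overlap for 5 of the 7, the 3 chorion genes, Vm26Aa and psd, as for 48.5% of all genes tested.

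On single arrays the 3 chorion genes also passed 2-fold in favour of KG03723 over rm7 after each injection. After bacteria Cp38 was 4.14-fold, Cp36 3.41-fold and Cp7Fc 2.51-fold higher, where 2.92% of all genes were. After PBS Cp7Fc was 5.17-fold, Cp38 3.54-fold and Cp36 3.44-fold higher, where 4.25% of all genes were. None of the 7 was at least 2-fold lower after either injection, against 3.65% and 2.40% of all genes.

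**Figure D2:**
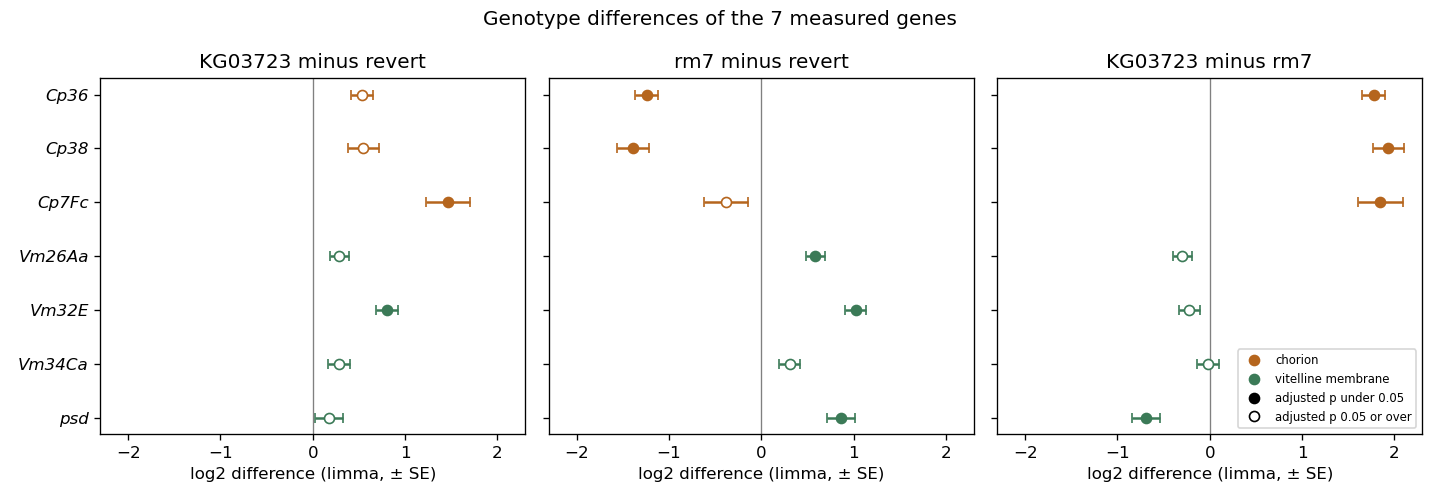
Log2 difference between genotypes for the 7 measured genes in the additive limma fit over 6 arrays, with bars of 1 SE, chorion genes in brown and vitelline membrane genes in green. Filled points have an adjusted p under 0.05. Cp36 and Cp38 lie at -1.24 and -1.39 for rm7 minus revert, while Vm32E lies at 1.02.

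The balance of the layers was also read within each array, as the mean log2 signal of the 3 chorion genes minus that of the 4 vitelline membrane genes, centred on its mean over the 6 arrays. It was 0.66 after bacteria and 1.09 after PBS in KG03723, -1.41 and -1.17 in rm7, and 0.28 and 0.55 in revert. Both rm7 arrays lay below the other 4, and in each genotype the bacteria array lay below the PBS array. This balance was described and not tested.

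The response to the bacterium stayed under 2-fold for each of these genes, as it did for most genes. In KG03723, rm7 and revert, 0 of the 7 genes were at least 2-fold higher after bacteria than after PBS (0.475%, 0.623% and 0.584% of all genes), and 0 were at least 2-fold lower (0.861%, 0.327% and 3.42% of all genes). Cp38 had a log2 ratio of -0.62 in KG03723, -0.85 in rm7 and -0.11 in revert. Of all genes, 3.8%, 0.574% and 33% had a lower ratio in these genotypes. Cp36 stood at -0.51 in KG03723, -0.49 in rm7 and -0.15 in revert, with 6.16%, 3.75% and 28.5% of all genes lower. Both were below 0 in all 3 genotypes and were the lowest of the 7 in KG03723 and rm7, while Cp7Fc was the lowest in revert. Cp7Fc stood at -0.47 in KG03723, 0.57 in rm7 and -0.285 in revert. The vitelline membrane genes lay between -0.32 and 0.05 in KG03723, between -0.33 and 0.29 in rm7 and between -0.004 and 0.27 in revert.

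In the limma fit over the 3 genotypes, 0 of the 7 genes were called after bacteria, and 0 of all 9540 genes in either direction. At an unadjusted p under 0.05 the fit placed 2 of the 7, Cp36 and Cp38, lower and 0 higher, against 1.86% and 1.78% of all genes. Cp38 stood at log2 -0.53 ± 0.14 (SE, 3 arrays against 3) and Cp36 at -0.38 ± 0.10, each with a limma adjusted p of 1. With the arrays of the mutants alone, Cp38 was called lower (log2 -0.73, limma adjusted p = 0.00258). That fit has fewer arrays and fewer residual degrees of freedom than the main one, so its p-value rests on less. Under the alternative settings, 0 to 26 of all genes were called lower. Leaving out either revert array gave the same estimate for Cp38, because the other then had no partner in its genotype. That estimate is no separate result. No gene of the 7 separated all bacteria arrays from all PBS arrays, which 4.72% of all genes did. This count pools the 3 genotypes, and Cp36 and Cp38 differed more between genotypes than between injections. It therefore cannot show their response within a genotype.

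**Figure D3:**
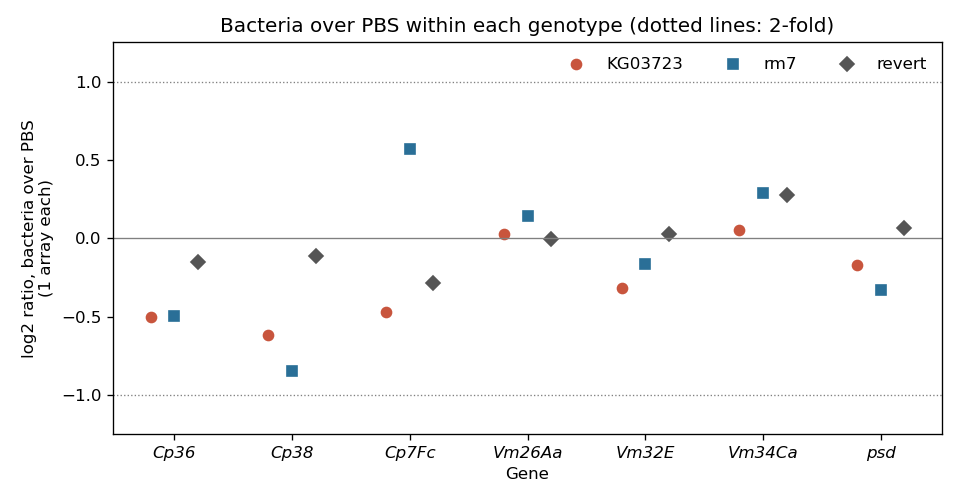
Log2 ratio of the bacteria array over the PBS array within KG03723, rm7 and revert for the 7 measured genes, 1 ratio per point, with dotted lines at 2-fold. Cp36 and Cp38 lie below 0 in each genotype, and Cp7Fc lies at 0.57 in rm7 but at -0.47 in KG03723 and -0.285 in revert.

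Other eggshell genes were set beside these. Late eggshell genes, which are transcribed after the early chorion genes, had a median log2 difference of -1.54 between rm7 and revert over 16 of 16 genes. In the limma fit 4 of them were called lower and 0 higher, where 3% and 2.61% of all genes were. Those called were CG13084, CG15571, CG4009 and CG11381. On the rm7 bacteria array CG13084 (7.88) and CG15571 (39.7) were under the floor, so the floor stood in for their signals there. The late chorion genes Cp15, Cp16, Cp18 and Cp19 were not called (limma adjusted p of 0.207 to 0.633). In KG03723 minus revert the median of the 16 late eggshell genes was -0.12. Of these, 1 was called higher, CG13114, and 0 lower, where 0.681% and 0.692% of all genes were. On the rm7 bacteria array 5 of the 16 late genes were under the floor, where all 7 early genes were above it. The mean log2 signal of the late genes relative to their mean over the 6 arrays was -1.98 on that array and -0.13 on the rm7 PBS array. For the 3 early chorion genes it was -1.08 and -0.82 on these rm7 arrays, and for the 4 vitelline membrane genes 0.33 and 0.34. After bacteria all 16 late genes were lower in rm7 than in revert, with a median log2 ratio of -2.23. Of them 14 were at least 2-fold lower, where 2.87% of all genes were. The rm7 and revert arrays compared there had the highest and the lowest 3'/5' control ratios. After PBS the median of the late genes was -0.83, with 5 at least 2-fold lower, where 4.16% of all genes were. Then 1, Cp16, was higher in rm7 (8507 against 5612 in revert).

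Of 16 further genes of the eggshell matrix and its maturation, 11 were measured and 10 tested, since Pxd was under the floor on all arrays. In rm7 minus revert 3 were called higher, Pxt, Vm26Ac and ndl, and 1 lower, yellow-g, where 2.61% and 3% of all genes were. Vm26Ac, which lies in the same cluster as Vm26Aa and psd, read 1432 and 1842 in rm7 after bacteria and PBS, against 746 and 697 in revert (log2 1.17 ± 0.15, limma adjusted p = 0.00753). The gene ndl (nudel) encodes a protease that follicle cells secrete into the space inside the vitelline membrane. It read 1337 and 1563 in rm7, against 746 and 643 in revert (log2 1.06 ± 0.15, limma adjusted p = 0.00962). Both thus moved the same way as Vm32E, psd and Vm26Aa in rm7.

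A further pair of genes had a profile nearer to the chorion genes. The gene yellow-g, expressed in follicle cells late in oogenesis and needed for a rigid eggshell, read 1864 and 3022 in KG03723 after bacteria and PBS, 463 and 495 in rm7, and 829 and 964 in revert. It was called in all 3 genotype contrasts, at log2 1.41 for KG03723 minus revert (limma adjusted p = 0.0158), -0.90 for rm7 minus revert (limma adjusted p = 0.0306) and 2.31 for KG03723 minus rm7 (limma adjusted p = 0.000778). Its relative yellow-g2 read 1742 and 2971 in KG03723, 488 and 401 in rm7, and 848 and 986 in revert, and was called for KG03723 minus rm7 (log2 2.36, limma adjusted p = 0.00247). Both differed between the genotypes in the order seen for Cp36 and Cp38.

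Pxt, a peroxidase gene that acts in prostaglandin synthesis in follicle development, stood apart. It read 98.4 and 181 in KG03723 after bacteria and PBS, 3693 and 4722 in rm7, and 497 and 346 in revert, with log2 3.33 ± 0.31 for rm7 minus revert (limma adjusted p = 0.00206). The genes clos and fs(1)N, whose proteins are associated with the vitelline membrane, were at log2 0.08 and 0.05 for rm7 minus revert (limma adjusted p = 0.881 and 0.942). Neither was called in any of the 3 genotype contrasts.

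Markers of other cells were read beside these differences. Yolk and female fat body genes had a median log2 difference of 0.18 for rm7 minus revert and 0.20 for KG03723 minus revert, and ovary germline genes of 0.04 and -0.11, with 0 genes called in either list and contrast. Testis genes had medians of 0.07 and 0.21, with 0 called. Male accessory gland genes had medians of -0.33 and -0.07, with 2 called lower in rm7, where 3% of all genes were. The male lists moved in opposite ways after each injection: testis genes had a median log2 ratio of rm7 over revert of 0.76 after bacteria (17 of 19 above 0) and -0.64 after PBS (17 of 19 below 0), and accessory gland genes of 0.21 and -0.88. Follicle cell regulators (11 of 16 measured and 10 tested, with cas under the floor on all arrays, most of them active in other tissues too) had medians of 0.07 and -0.06 with 0 called, and factors used in chorion gene amplification (14 of 21 measured) of -0.22 and -0.06 with 0 called. On the rm7 bacteria array the amplification factors had a median log2 ratio over revert of -0.44, with 13 of 14 below 0, and on the rm7 PBS array one of 0.02. The part of these lists in the eggshell differences was not tested.

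**Figure D4:**
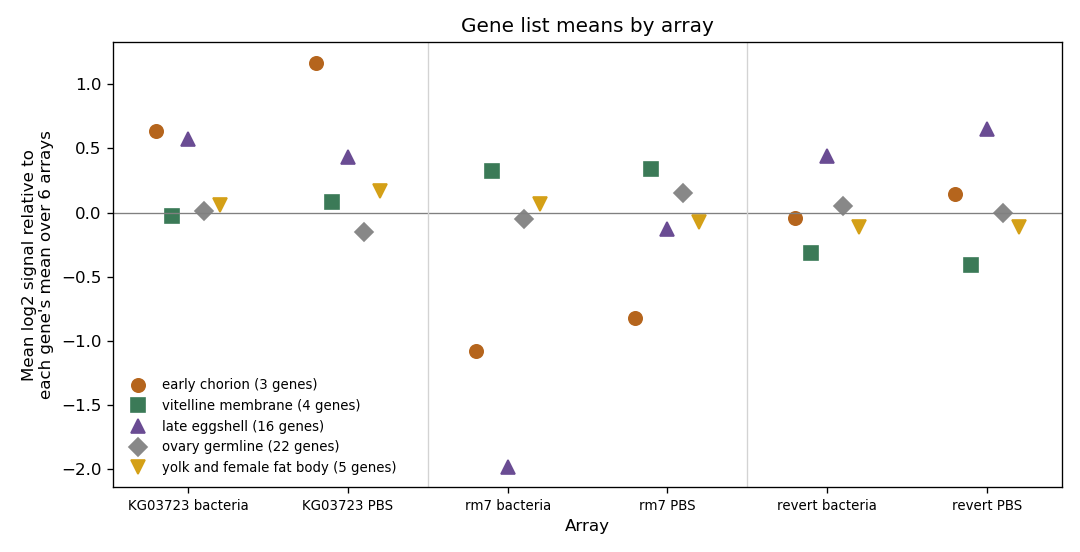
Mean log2 signal of 5 gene lists on each array, relative to each gene's own mean over the 6 arrays, with the number of measured genes in the legend. On the rm7 bacteria and PBS arrays the early chorion genes lie at -1.08 and -0.82 and the vitelline membrane genes at 0.33 and 0.34, while the ovary germline genes stay between -0.15 and 0.15 on all arrays.

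The genes next to the measured eggshell genes were also described, as the chorion cluster is amplified together with flanking DNA. Whole-fly RNA signals do not measure gene copies, and otu is also in the ovary germline list used here. Amplification was not tested. Protein-coding genes that lie within 3 genes of the clusters or of a single member, or between members, numbered 25, of which 22 were tested. For rm7 minus revert 2 of the 22 were called, Vm26Ac and CG33181, both higher, where 2.61% of all genes were called higher and 3% lower. CG33181, the gene beyond otu on the Cp38 side of the chorion cluster, stood at log2 0.48 (limma adjusted p = 0.0405), against -1.39 for Cp38. The gene otu, which borders Cp38, stood at 0.32 (limma adjusted p = 0.293), and CG12116, on the other border, at -0.18 (limma adjusted p = 0.482). For KG03723 minus revert 0 of the 22 were called, where 0.681% of all genes were called higher and 0.692% lower. For KG03723 minus rm7 1 was, CG16956 near Vm34Ca, which was higher, where 3.43% of all genes were called higher and 2.68% lower. Neither gene that borders the chorion cluster was called in any of the 3 contrasts, as was the case for most genes tested.

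Genes with the profile most like the mean of the 7 over the 6 arrays were CG14499 (Pearson r = 0.98), Jon66Ci, CG34236, CG3987, CG7402 and Hex-C (r = 0.97), among 1696 genes above the floor on all arrays with a range of at least 1 on the log2 scale. CG14499 read 7708 and 10697 in KG03723 after bacteria and PBS, 968 and 1379 in rm7, and 1376 and 1414 in revert. The mean of the 7 averages over Cp36 and Cp38, called lower in rm7 than in revert, and Vm32E, psd and Vm26Aa, called higher. For the chorion genes alone the most like were CG42335, Nplp4, CG4009, CG31826, yellow-g and GstE5 (r = 0.983 to 0.991). For the vitelline membrane genes alone they were CG32212, CG43064, DCTN3-p24, ndl, Lectin-galC1 and Argp (r = 0.98 to 0.996). With 6 points that share genotypes in pairs, likeness of this size describes the arrays and carries no test.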

How the data were processed

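The authors deposited one intensity per probe set and array, computed with MAS5 per the submitters' processing notes, with a 2% trimmed mean of 500 on each array as found in the values. No MAS5 version is named in the sources used here. Of 18952 probe sets, 183 controls were left out, 13647 had 1 annotated gene, 402 several and 4720 none. RefSeq (assembly Release 6) held the gene identifier of 13544, and 0 symbols changed. The brightest probe set was used per gene, floored at 42.7, the 40th percentile, before log2. The limma 3.58.1 fit in R 4.3.3 used genotype and injection, moderated variances with a trend and Benjamini-Hochberg adjustment, and was checked on simulated data. The members, lists and tests were chosen with earlier results of these data known. Named genes were the 10 members, of each other list at most the 4 with the largest absolute log2 ratio in a comparison, and the 6 most like profiles. The like profiles were named for all measured members and for each layer. The genes named because they were called, the late chorion genes, clos, fs(1)N and the flanking genes fall outside that rule and were chosen after their values were seen. Other settings tried were quantile or cyclic loess normalization, a lower (20th percentile) or higher (60th percentile) floor, a pseudocount of 50 in its place, the mean over probe sets, no filter, no variance trend, a dropped term, genotype or array, and a 3-fold rule.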

Additional observations from a re-analysis of the deposited data

Results flagged for a closer look

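Single-array effects of opposite sign under the same contrast were listed. The difference between the effects was not tested, since each effect has 1 array on either side. Cp7Fc had a log2 ratio of bacteria over PBS of 0.57 in rm7, against -0.285 in revert (difference 0.85) and -0.47 in KG03723 (difference 1.04). Seen the other way, its ratio of rm7 over revert was 0.04 after bacteria and -0.81 after PBS, which is the same difference of 0.85. For psd the bacteria ratio was -0.33 in rm7 and 0.06 in revert (difference -0.39), and -0.17 in KG03723 (difference from revert -0.23). For Vm32E it was -0.16 in rm7 and 0.03 in revert (difference -0.19), and -0.32 in KG03723 (difference from revert -0.35). Vm26Aa lay at 0.14 in rm7 (difference from revert 0.15) and 0.03 in KG03723 (difference from revert 0.0313), with revert at -0.004. Vm34Ca had a ratio of KG03723 over rm7 of -0.14 after bacteria and 0.10 after PBS (difference -0.24). Quantile or cyclic loess normalization turned the sign of some of these small ratios, those of Vm26Aa after bacteria in KG03723 and rm7 and that of Vm32E in revert, and quantile normalization put the ratio of Vm34Ca after PBS at 0.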

How the results depend on the processing

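All 11 genotype differences called among the 7 genes kept their sign under each of the 16 alternatives, but many lost the threshold. Several alternatives could not move these estimates, such as no filter, no variance trend or no injection term. Leaving out arrays of the genotype outside the contrast could not move them either. A sign kept under those settings is therefore no measure of stability. Without the variance trend, 0 genes were called higher in KG03723 than in revert, 1 was higher and 1 lower in rm7 than in revert, and 0 were lower in KG03723 than in rm7. Without the injection term 2 genes were higher in rm7 than in revert, as Vm26Aa lost its call. With the mean over probe sets, none of the 7 passed as higher in KG03723 than in revert (0) or lower in KG03723 than in rm7, where cyclic loess also gave 0. Each of the 7 has 1 probe set, so taking that mean changed other genes in the fit and left the log2 differences of the 7 as they were. Without the filter on dim genes 0 of the 7 were called in any contrast. This fit adds all the genes that the filter removed, among them 1877 that sit at the floor on all arrays and have no variance. Without the rm7 arrays 1 gene was called higher in KG03723 than in revert, and without the revert arrays 1 was lower after bacteria. Leaving out 1 array at a time gave 0 to 4 genes higher in KG03723 than in revert, 0 to 3 higher in rm7 than in revert, 0 to 1 lower in KG03723 than in rm7 and 0 to 1 lower after bacteria. Among all genes, the alternatives called 0 to 188 higher and 1 to 113 lower for KG03723 minus revert (65 and 66 as reported), 13 to 308 and 4 to 322 for rm7 minus revert (249 and 286), 8 to 492 and 26 to 419 for KG03723 minus rm7 (327 and 256), and 0 to 21 and 0 to 26 for bacteria minus PBS (0 and 0). With a 3-fold rule, 0 of the 7 were higher in KG03723 than in revert after either injection, 0 higher and 0 lower in rm7 than in revert after PBS, and 1 lower after bacteria. Quantile normalization left 1 gene at least 2-fold lower in rm7 after PBS. Of the single-array counts under an alternative, 120 of 126 stayed within 1.5 times, but most of these counts were 0 under every setting. Of the counts of the 7 genes called in the limma fits, 105 of 132 stayed within 1.5 times. Otherwise the cause of these changes was not tested. The fit of bacteria against PBS matched arrays within genotype through its genotype term. No other pairing was possible because the labels carry no replicate numbers and each group has 1 array.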
